A study of Mus musculus with 9 samples.

Results

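The 10 genes described here encode the main machinery that makes and uses small RNAs in mouse cells: Drosha, Dgcr8, Xpo5, Dicer1, Tarbp2, Prkra and the Argonautes Ago1, Ago2, Ago3 and Ago4. They were chosen by their gene symbols, with earlier results of these data known, and all 10 were found among the 16636 genes of the count table. mRNA was sequenced from E14 cells, a mouse embryonic stem cell line, kept naive in 2i/LIF medium. The 9 libraries form 3 groups of 3: untreated cells, cells given siLuc, a control siRNA against luciferase, and cells given siStag3, an siRNA against the cohesin subunit gene Stag3. The labels give the genotype as wildtype for the untreated cells and as Stag3 knockdown for the siStag3 cells. Both siRNA treatments lasted 48 h and used 2 transfections of 50 pmol onto 200000 seeded cells, and all groups were of the same line. The untreated cells are not labelled as having received transfection reagent, so reagent and siRNA cannot be told apart in a comparison with them.

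In the microRNA pathway, the Microprocessor, made of DROSHA and DGCR8, cuts a hairpin out of a primary transcript in the nucleus. Exportin-5, encoded by Xpo5, carries the hairpin to the cytoplasm, where DICER1 and its partners TARBP2 and PRKRA (PACT) cut it to a duplex. An Argonaute protein then holds 1 strand and silences mRNAs that match its seed. A transfected siRNA enters after the Microprocessor step, and AGO2 is the Argonaute that can slice a fully matched target. An added siRNA can therefore compete with the microRNAs of the cell for Argonaute proteins, and the mRNA levels of these genes were compared across the 3 groups.

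Embryonic stem cells of the mouse carry microRNAs of the miR-290 and miR-302 families, which share a seed, while let-7 is held low by LIN28. These microRNAs were not measured. Their mature sequences are shown, from RefSeq (GRCm38.p6), because their targets are used below as a readout. Bases 2 to 8, the seed, are in capitals.
mmu-miR-291a-3p: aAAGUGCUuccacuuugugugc
mmu-miR-294-3p: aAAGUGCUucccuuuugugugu
mmu-miR-295-3p: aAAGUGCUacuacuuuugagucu
mmu-miR-302b-3p: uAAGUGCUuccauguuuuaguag
mmu-miR-302d-3p: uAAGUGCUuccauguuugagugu
mmu-let-7a-5p: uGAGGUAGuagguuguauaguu
mmu-let-7g-5p: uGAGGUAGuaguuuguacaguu
The first 5 share the seed AAGUGCU, and both let-7 sequences carry GAGGUAG.

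Dgcr8 mRNA itself holds a hairpin, and cutting of hairpins in this mRNA by the Microprocessor is a known feedback. The RefSeq hairpin Mir1306 lies within a Dgcr8 coding exon, at chr16:18284239-18284317 on the minus strand of GRCm38.p6. Its 2 mature arms are in capitals.
Mir1306 hairpin: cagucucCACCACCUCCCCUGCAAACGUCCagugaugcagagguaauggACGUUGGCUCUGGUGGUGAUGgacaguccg

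Ago3, Ago1 and Ago4 lie next to each other on chromosome 4, all on the minus strand, and Ago2 is on chromosome 15. Of the Argonaute pairs, Ago1 and Ago3 share the longest identical coding run, 170 bases, shown because reads within it cannot be given to either gene on sequence alone. The 38 bases in capitals are also present in Ago4.
Ago1 and Ago3: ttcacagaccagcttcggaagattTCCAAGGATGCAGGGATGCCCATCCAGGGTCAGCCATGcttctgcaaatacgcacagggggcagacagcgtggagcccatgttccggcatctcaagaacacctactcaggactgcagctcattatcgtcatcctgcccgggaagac
The run is short against the transcripts. Of the 31-base stretches of Ago1 transcripts, 1.72% also occur in Ago3, and 0.283% in Ago2. Ago2 and Ago3 share none. Tarbp2 is the member with the largest share of such stretches in other genes, 16.6%, all of them found in the pseudogene Gm18584, which is not listed in the count table. Exons of Ago2 overlap those of Chrac1 on the opposite strand over 219 bases, and exons of Dgcr8 overlap those of Trmt2a over 825. The strand setting of the counting is not given in the sources used here, so reads of these stretches may be shared.

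The column names of the libraries give a set (1 or 3) and an experiment (1, 3 or 5), whose meaning the labels do not state. Each group has 2 libraries of Set 1 and 1 of Set 3. In Set 3 the siLuc library is of experiment 1 and the others are of experiment 5. Libraries held 29332436 to 44527534 counts, and 3 counts amount to 0.0674 to 0.102 CPM, the count scaled to the size of the library. Summed CPM of 10 embryonic stem cell markers, Pou5f1 and Nanog among them, was 5851 to 6257 in all 9 libraries. Markers of fibroblasts (6 of 7 in the table), primitive endoderm (6 of 6), germ layers (6 of 7) and 2-cell-like cells (4 of 6) summed to at most 2.86, 3.28, 12.2 and 1.21 CPM. Fibroblast markers Col3a1, Postn and Lum were at 0 in at least 1 library. Stag3 itself was 24.1, 24.3 and 28.6 CPM in untreated cells, 22.5, 23.3 and 26.7 in siLuc and 13.5, 15.2 and 15.6 in siStag3. It fell by 0.71 on the log2 scale against siLuc (SE 0.0722, edgeR adjusted p = 0.00205). The call was lost without a term for the set (adjusted p = 0.605) and without the siStag3 library of Set 1 experiment 1 (adjusted p = 0.0582, at -0.67). The knockdown was partial: the fitted level was 0.550 to 0.682 of that in siLuc (95% interval), and how far the protein fell was not measured.

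To compare genes, CPM was divided by the length of the longest annotated transcript. Drosha, the nuclear nuclease, was the highest, at 68.4 ± 1.93 CPM per kb in untreated cells (SD, n = 3). Ago2 followed at 41.0 ± 9.67 and Xpo5 at 33.4 ± 1.32, and the ranges of Ago2 and Xpo5 overlapped. Ago1 stood at 26.9 ± 1.37 CPM per kb, Tarbp2 at 26.5 ± 2.97 and Dgcr8 at 21.6 ± 0.196. Ago1 and Tarbp2 did not differ beyond their spread, and in siLuc the ranges of Tarbp2 and Dgcr8 overlapped too. Dicer1 stood at 11.4 ± 0.635 CPM per kb, below the Microprocessor genes. Prkra, at 3.89 ± 0.326, was below its relative Tarbp2. Ago3 had 1.88 ± 0.365 and Ago4 only 0.157 ± 0.0108 CPM per kb, the latter from 30 to 44 counts per library. The order depends on the length used. With the median transcript length, Ago2 ranked 1 and Drosha 2 in all 3 groups, and Ago3 moved from rank 9 to rank 7, since its longest transcript has 15595 bases and its median one 654.

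**Figure D1:**
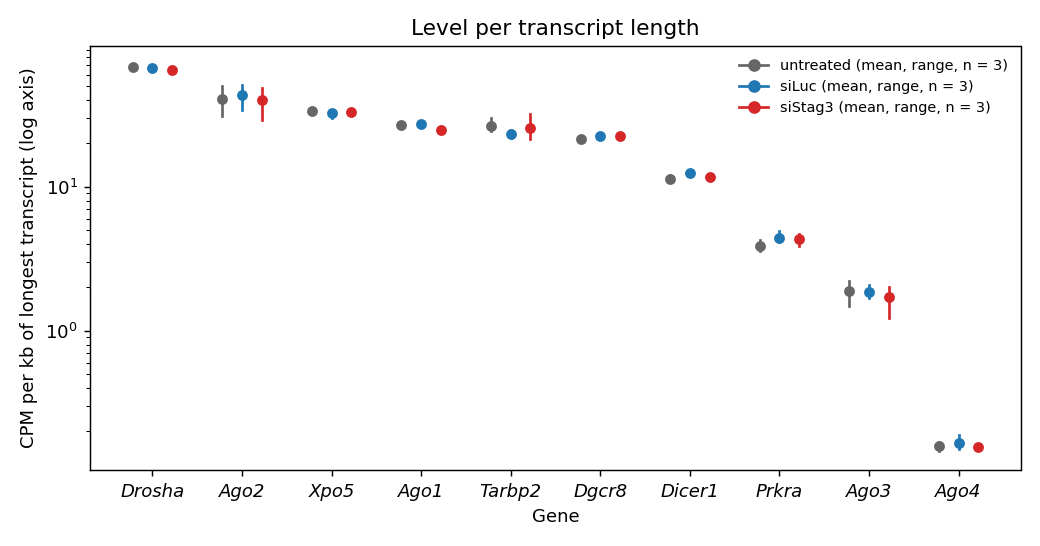
CPM per kb of the longest annotated transcript (log axis) for each gene and group, with the mean as a point and the range of 3 libraries as a line. Drosha is highest and Ago4 lowest in every group, and the groups of a gene lie close to each other.

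Ago2 made up most of the Argonaute mRNA. Its share of the summed CPM of the 4 Argonaute genes was 73.0% to 76.1% in the 6 Set 1 libraries and 65.9% to 67.1% in the 3 Set 3 libraries. Ago1 held 20.2% to 23.1% in Set 1 and 28.7% to 30.5% in Set 3. Ago3 held 3.13% to 3.99% and Ago4 0.112% to 0.174% in all libraries. Per kb the share of Ago2 was smaller, 51.7% to 64.5%. The shares split by set and overlapped between the groups.

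No member changed past the threshold, an edgeR adjusted p below 0.05 over all 14246 genes tested, in any of the 4 comparisons between groups. All 10 members passed the filter on low counts. At an unadjusted p under 0.05 there were 2 members (Dicer1 and Tarbp2) in siLuc against untreated, 1 (Ago1) in each siStag3 comparison and 0 in both siRNA groups. Of all 14246 genes tested, 3964 were under it in siLuc against untreated and 1122 in siStag3 against siLuc. It was 2417 in siStag3 against untreated and 3770 in both siRNA groups, so these member counts do not stand out. The DESeq2 Wald test called no member. Over all genes it called 1296 of 11153 in siLuc against untreated and 22 of 12765 in siStag3 against siLuc. It called 397 of 12120 in siStag3 against untreated and 1199 of 11475 in both siRNA groups. Fewer genes had an adjusted p there than in edgeR, so a member of few counts, such as Ago4, may have had none. Over all genes, 4.2% passed in siLuc against untreated, 0.0281% in siStag3 against siLuc, 2.53% in siStag3 against untreated and 6.04% in both siRNA groups against untreated. With so few genes called, 0 of 10 members is close to the background in each comparison. The median log2 fold change of the members was 0.04, -0.07, -0.03 and 0.00261 in the same order, with 7, 3, 3 and 5 of 10 above 0. The medians over all genes lay between -0.00646 and -0.00242. The comparisons share libraries, so their values are not independent of each other. Without the set term, 0.00702%, 0%, 0.014% and 0.0702% of genes passed, and no member did. With the set and a correction for GC content, 7.13%, 0.358%, 6.54% and 9.78% passed, again with no member among them.

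**Figure D2:**
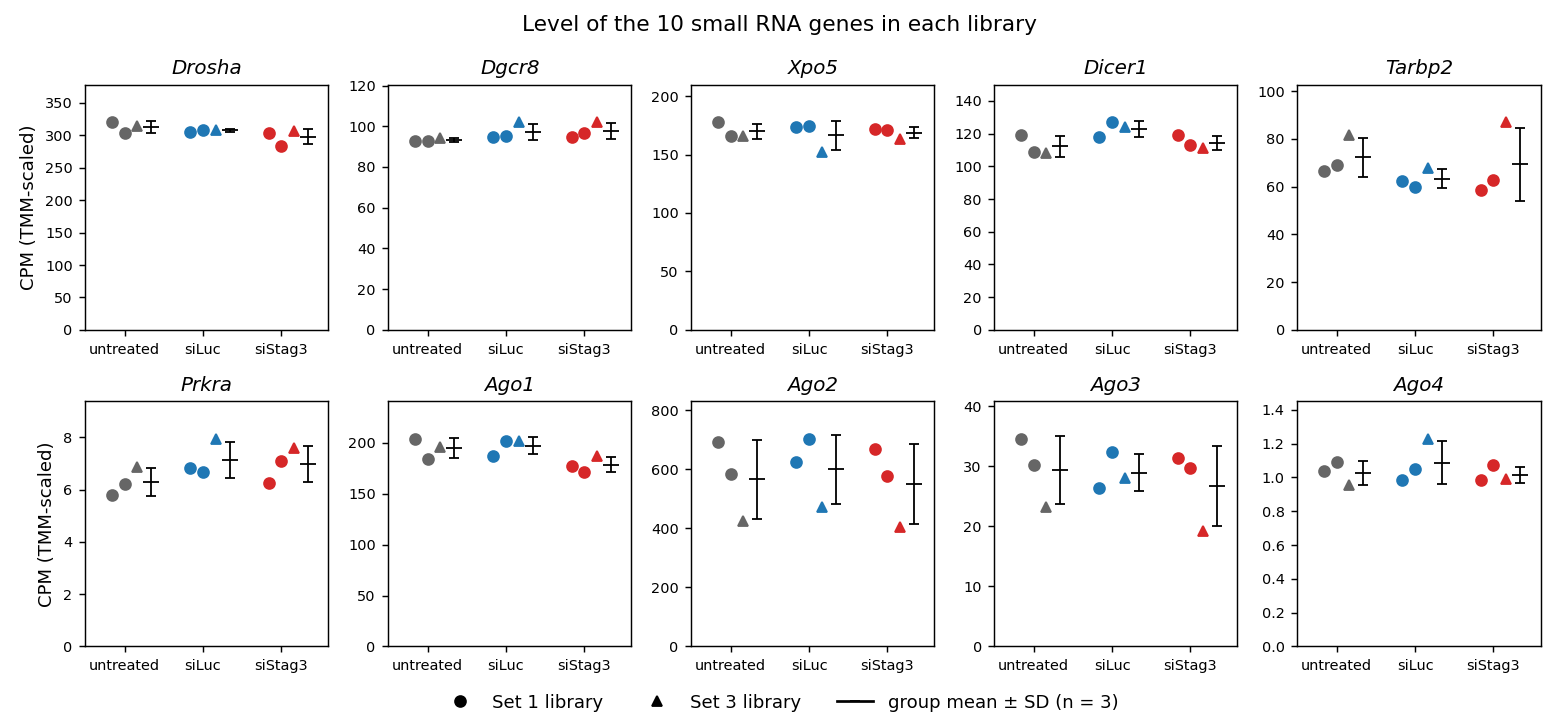
CPM of each gene in each library, by group, with Set 1 as circles, Set 3 as triangles and the group mean ± SD (n = 3) as black bars. All axes start at 0. The Set 3 libraries stand apart for Ago2 in every group, at 405 to 473 CPM against 578 to 703 in Set 1. How many other genes separate by set in this way was not counted.

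The Microprocessor genes stood close to each other across the groups. Drosha was 320, 303 and 315 CPM in untreated, 305, 308 and 309 in siLuc and 304, 284 and 306 in siStag3 cells. These groups overlapped, and the log2 fold change was -0.02 in siLuc against untreated (95% interval -0.14 to 0.09) and -0.05 in siStag3 against siLuc (-0.16 to 0.07). Dgcr8, the partner that binds the hairpin, was 92.6, 92.8 and 94.2 CPM in untreated, 94.9, 95.3 and 101.9 in siLuc and 94.7, 96.6 and 101.9 in siStag3 cells. All 6 siRNA libraries were above all 3 untreated ones, but by little: the log2 fold change of both siRNA groups was 0.06 (SE 0.0450, edgeR adjusted p = 0.371). Dgcr8 was the 1 member of 10 whose libraries did not overlap in this comparison, in which 4.4% of all genes in the table did not. It was also the 1 member without overlap in siLuc against untreated and in siStag3 against untreated, where 18.5% and 9.98% of genes did not overlap.

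Xpo5, the exporter, was 178, 166 and 166 CPM in untreated, 173, 174 and 152 in siLuc and 172, 171 and 163 in siStag3 cells. The lowest value belonged to the Set 3 library of siLuc, and the groups overlapped. The log2 fold change was -0.03 in siLuc against untreated (95% interval -0.15 to 0.09) and 0.02 in siStag3 against siLuc (-0.10 to 0.14). In the fit with the set, the intervals of Drosha, Dgcr8 and Xpo5 in these comparisons reached no further than 1.13-fold up or 0.895 of the level. In siStag3 against untreated that of Drosha reached 0.881. Without the set term, the intervals in siLuc against untreated reached 1.15-fold for Dgcr8 and 0.876 for Xpo5.

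Dicer1 was 119, 109 and 108 CPM in untreated, 118, 127 and 124 in siLuc and 119, 113 and 111 in siStag3 cells. siLuc was the highest group on average, and its lowest library lay within the range of the untreated ones. The log2 fold change was 0.13 against untreated (SE 0.0594, adjusted p = 0.167, edgeR) and -0.10 in siStag3 against siLuc (adjusted p = 0.696). Tarbp2, which binds double-stranded RNA beside DICER1, was 66.4, 69.0 and 81.6 CPM in untreated, 62.3, 59.9 and 67.8 in siLuc and 58.8, 62.6 and 87.0 in siStag3 cells. In each experiment of Set 1 and in Set 3, siLuc was below untreated, and the groups overlapped because Set 3 ran high. The log2 fold change of -0.19 had the smallest p of the members in this comparison (SE 0.0732, adjusted p = 0.125, edgeR). It was past the threshold when only the 6 libraries of both groups were fitted (adjusted p = 0.0486), a fit in which 1801 genes passed. Tarbp2 has the highest GC content of the members, 54.1%, and over 14226 genes the log2 fold change of siLuc against untreated ran against GC content, with a Spearman correlation of -0.484 across genes. With the GC correction, the Tarbp2 difference was -0.11 (adjusted p = 0.243); the part of GC content in it was not tested otherwise. Prkra, the other DICER1 partner, was 5.81, 6.20 and 6.85 CPM in untreated, 6.81, 6.68 and 7.94 in siLuc and 6.24, 7.09 and 7.59 in siStag3 cells. Its siLuc value was above the untreated one in both experiments of Set 1 and in Set 3, with a log2 fold change of 0.18 (SE 0.0977, adjusted p = 0.234, edgeR).

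Of the Argonautes, Ago1 gave the smallest p in siStag3 against siLuc. It was 204, 184 and 196 CPM in untreated, 187, 202 and 202 in siLuc and 177, 172 and 187 in siStag3 cells. All 3 siStag3 libraries were below all 3 siLuc libraries, the 1 member of 10 without overlap in this comparison, against 6.86% of all genes. The log2 fold change was -0.14 (SE 0.0582, adjusted p = 0.566, edgeR), and the siStag3 and untreated libraries overlapped (-0.13, adjusted p = 0.292).

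Ago2 was 691, 583 and 425 CPM in untreated, 625, 703 and 473 in siLuc and 670, 578 and 405 in siStag3 cells. The spread within each group was far larger than the differences between groups, whose log2 fold changes were 0.09 in siLuc against untreated (95% interval -0.07 to 0.26) and -0.13 in siStag3 against siLuc (-0.30 to 0.03). Ago3 was 34.6, 30.2 and 23.3 CPM in untreated, 26.4, 32.3 and 28.1 in siLuc and 31.4, 29.7 and 19.2 in siStag3 cells. The groups overlapped throughout, with 0.00224 in siLuc against untreated (-0.26 to 0.27) and -0.14 in siStag3 against siLuc (-0.41 to 0.13). Ago4 stayed between 0.953 and 1.23 CPM in all 9 libraries. Its intervals were the widest, -0.35 to 0.52 and -0.54 to 0.34 in the same comparisons, which does not exclude a change up to 1.43-fold in siLuc.

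**Figure D3:**
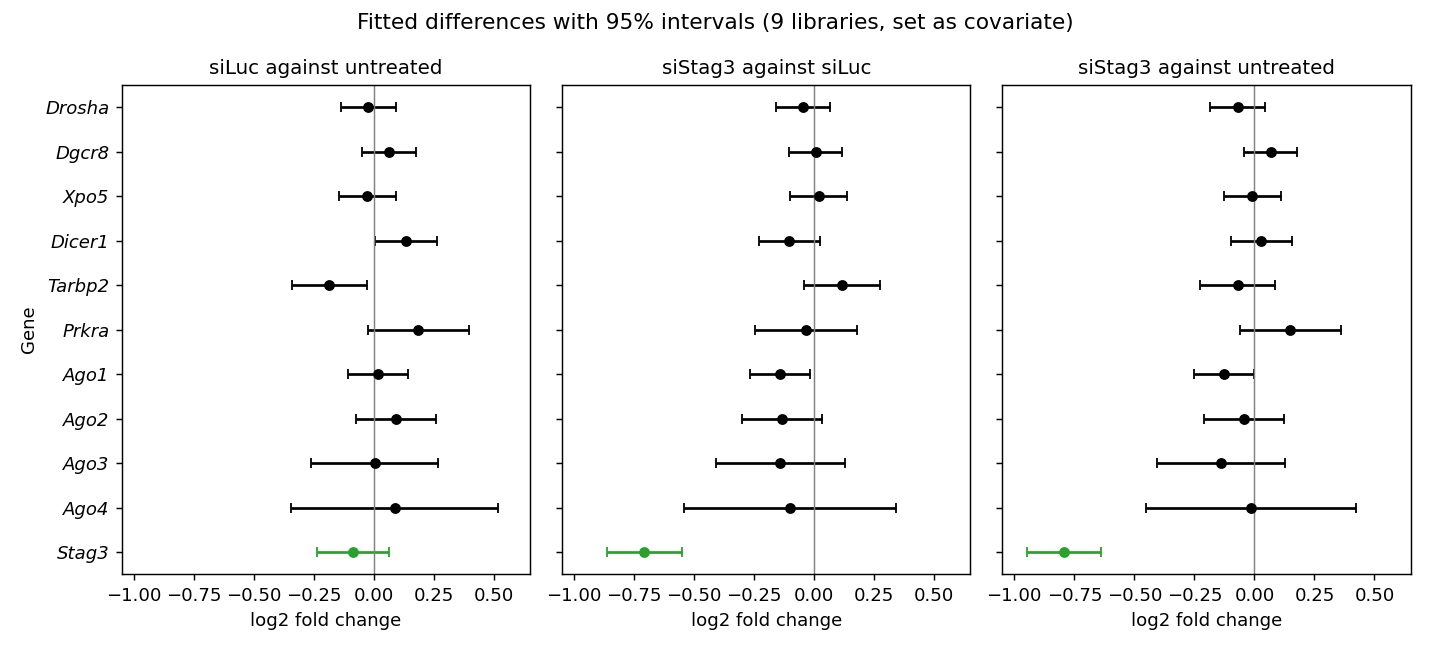
Fitted log2 fold changes with 95% intervals for each gene in 3 comparisons, with Stag3 in green. The intervals of the 10 members reach no further than -0.54 and 0.52, and Stag3 stands apart in both siStag3 comparisons.

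Ago2, Ago3 and Tarbp2 differed between the sets. Against Set 1, the Set 3 libraries were lower in Ago2 (-0.56 on the log2 scale, SE 0.0681, adjusted p = 4.72e-05, edgeR) and in Ago3 (-0.40, SE 0.107, adjusted p = 0.0118), and higher in Tarbp2 (0.32, SE 0.0627, adjusted p = 0.00145). For Ago2 all 3 Set 3 libraries lay below all 6 Set 1 libraries. The share of all genes that separate by set in this way was not counted, so it cannot be read as particular to Ago2. The other 7 members did not pass. Of all genes, 42.7% passed in this comparison, so 3 of 10 members is not above the background. The Ago3 call was lost with the GC correction (-0.20, adjusted p = 0.151), without the untreated Set 3 library (adjusted p = 0.0803) and without the siStag3 Set 3 library (adjusted p = 0.0766). The Tarbp2 difference was 0.19 with the GC correction (adjusted p = 0.00237) and 0.21 without the siStag3 Set 3 library (adjusted p = 0.0114). Under the GC correction Dgcr8 (0.11, adjusted p = 0.0166), Xpo5 (-0.12, adjusted p = 0.0159) and Prkra (0.24, adjusted p = 0.0209) passed as well. In that fit 6055 of 14246 genes tested passed, so these calls do not stand out from the background. Across 14226 genes the set difference had a Spearman correlation of 0.471 with GC content and -0.236 with transcript length. Mitochondrial genes took 3.48%, 5.98% and 4.10% of the Set 3 libraries (untreated, siLuc, siStag3) and 4.41% to 6.78% of the Set 1 libraries. Their part in the set difference was not tested, and set and experiment cannot be told apart in the untreated and siStag3 libraries of Set 3.

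The difference between siStag3 and siLuc had opposite signs in the sets for Ago3, Ago4, Xpo5 and Tarbp2. In Set 3 the siLuc library is of experiment 1 and the other libraries are of experiment 5. Treatment and experiment therefore cannot be told apart in any Set 3 difference that involves siLuc. For Ago3 the difference in log2 CPM was 0.06 in Set 1 (2 libraries a group) and -0.55 in Set 3 (1 library a group). For Tarbp2 it was -0.01 in Set 1 and 0.36 in Set 3. It was 0.01 and -0.30 for Ago4, and -0.02 and 0.10 for Xpo5. The fitted difference between the sets was -0.61 for Ago3 (SE 0.181, adjusted p = 0.0962, edgeR) and 0.37 for Tarbp2 (SE 0.105, adjusted p = 0.0902, edgeR), past the threshold for neither. For Ago4 and Xpo5 the adjusted p was 0.715 and 0.501. In that test 1.12% of all genes passed. For siLuc against untreated the smallest p was that of Ago3, -0.14 in Set 1 and 0.27 in Set 3, with a difference of 0.41 (SE 0.175, adjusted p = 0.629, edgeR), and 0.014% of all genes passed. The 2 experiments of Set 1 also disagreed: Ago2 in siLuc minus untreated was -0.14 in experiment 1 and 0.27 in experiment 3, and Ago3 was -0.39 and 0.10. For both genes this gap between the experiments of Set 1 was wider than that between the sets.

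**Figure D4:**
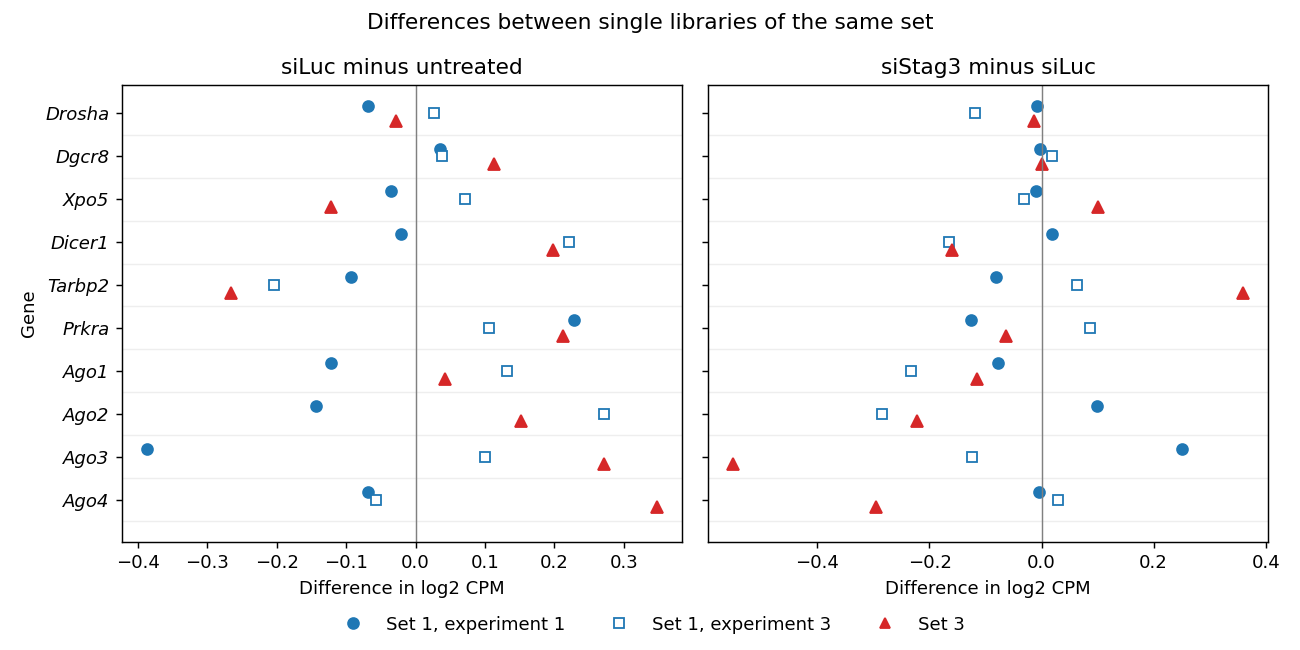
Difference in log2 CPM between 1 library and another of the same set, for siLuc minus untreated (left) and siStag3 minus siLuc (right), with the experiments of Set 1 as blue circles and open squares and Set 3 as red triangles. Ago3 lies on both sides of 0 in each panel, from -0.39 to 0.27 on the left and from -0.55 to 0.25 on the right. The Set 3 differences compare libraries of experiments 1 and 5, so treatment and experiment cannot be told apart in them.

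Several members varied alongside each other from library to library. After removing the mean of each set, log2 CPM of Ago2 had a Pearson correlation of 0.88 with Dicer1, 0.76 with Ago1 and 0.71 with Ago3 over the 9 libraries, and Dicer1 one of -0.79 with Tarbp2. Dgcr8 and Prkra correlated at 0.83, and Ago1 and Drosha at 0.83. Drosha and Prkra correlated at -0.73, and Ago4 and Xpo5 at -0.83. How often pairs among all genes reach such values was not counted. Of all genes tested, those most like Ago2 were Prrc2c (r = 0.99), Ep300 (0.97) and Zfp462 (0.96), with longest transcripts of 11502, 9566 and 10465 bases beside 13800 for Ago2. Those most like Dicer1 were Klhl42 (0.98), Mycbp2 (0.97) and Cemip2 (0.97). These correlations are descriptions over 9 libraries of 3 groups, which differ in treatment and in total count.

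Genes around the members were counted from lists of the pathway. Beside all comparisons with untreated cells below, mitochondrial genes took 3.48% to 5.33% of the counts in untreated libraries and 5.98% to 6.73% in siLuc, without overlap, and 4.10% to 6.78% in siStag3. The part of this difference in the listed genes was not tested. None of 14 Microprocessor cofactors and export factors and none of 21 Argonaute loading and silencing partners passed the threshold in any comparison. Their medians in siLuc against untreated were 0.13 and 0.03, and at an unadjusted p under 0.05 there were 8 and 5 genes in that comparison, 1 and 3 in siStag3 against siLuc, 2 and 4 in siStag3 against untreated and 8 and 5 in both siRNA groups. Of all 14246 genes tested, 3964, 1122, 2417 and 3770 were under it in the same order of comparisons. The DESeq2 Wald test called Srsf3 of the first list and Pum2 and Ptges3 of the second in siLuc against untreated and in both siRNA groups, and Hnrnpa2b1 of the first in both siRNA groups. Over all genes, that test called 1296 of 11153 in siLuc against untreated and 1199 of 11475 in both siRNA groups. Srsf3 and Ptges3 were named after their values were seen. The smallest p of the second list in siStag3 against siLuc was that of Limd1, an Argonaute-binding LIM protein, at -0.28 (SE 0.0738, adjusted p = 0.394, edgeR), which passed only with the GC correction (adjusted p = 0.0469). Over all genes tested, 1.65% rose and 2.55% fell in siLuc against untreated. These shares were 1.07% and 1.46% in siStag3 against untreated and 2.3% and 3.74% in both siRNA groups.

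Of 12 tested genes for the let-7 block, tailing and turnover of small RNAs, 1 rose in siLuc: Lin28a, which blocks let-7 maturation, from 129 ± 13.5 to 152 ± 23.4 CPM (SD, n = 3 each; log2 fold change 0.22, edgeR adjusted p = 0.0343). In siStag3 cells it was 129 ± 16.1 CPM, a log2 fold change of -0.23 against siLuc that did not pass (adjusted p = 0.228) and did with the GC correction (adjusted p = 0.0226). When any 1 of the 6 libraries was left out, the log2 fold change was 0.20 to 0.25 and did not pass, with an adjusted p up to 0.152. The DESeq2 Wald test called Lin28a and also Lin28b (0.65 in the edgeR fit, adjusted p = 0.0687) and Zswim8 (-0.38, adjusted p = 0.0616), of which Zswim8 was named after its values were seen. Lin28a is also 1 of 15 listed let-7 targets. Of 12 other double-stranded RNA-binding and editing genes, 1 rose in siLuc, Strbp (0.27, adjusted p = 0.0329). Strbp did not pass with the GC correction (adjusted p = 0.167). With any 1 of the 6 libraries left out it was 0.22 to 0.30 and did not pass, with an adjusted p up to 0.157. The DESeq2 Wald test called Strbp and also Dhx9 (0.19 in the edgeR fit, adjusted p = 0.0722).

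Of 5 known targets of the miR-290 family, 1 fell in siLuc: Cdkn1a, the cell cycle inhibitor p21, from 199 ± 10.1 to 157 ± 18.4 CPM (SD, n = 3 each; log2 fold change -0.35, edgeR adjusted p = 0.0197). It was 173 ± 6.47 CPM in siStag3 cells (-0.20 against untreated, adjusted p = 0.158). The siLuc call was lost without the untreated library of Set 1 experiment 3 (-0.33, adjusted p = 0.0507) or Set 3 (-0.35, adjusted p = 0.0966), and without the siLuc library of Set 1 experiment 1 (-0.37, adjusted p = 0.0667) or Set 3 (-0.25, adjusted p = 0.103). The other targets, Lats2, Rbl2, Casp2 and Ei24, did not pass, and the median of the list was -0.03. All 5 carry AGCACTT, the match to the miR-290 and miR-302 seed, in their longest 3′ UTR, as do 16.8% of 16295 genes with a 3′ UTR. The match to the let-7 seed, CTACCTC, is in 11 of 15 let-7 targets and in 10.4% of all genes. The matches of the listed targets named above are shown as 30 bases of the sense strand around them, with the match in capitals (GENCODE M21).
Cdkn1a, match 1: tcctcagacctgaatAGCACTTtggaaaaa
Cdkn1a, match 2: taccgtgggtgtcaaAGCACTTagtgggtc
Lin28a, match 1: gcacagcctgttgaaCTACCTCatttttgc
Lin28a, match 2: gagatcgccacaaacCTACCTCactgtgtt
Among the members themselves, AGCACTT occurs only in the 3′ UTR of Ago3, 3 times in 12742 bases, and 88.2% of 17 genes with a 3′ UTR within 10% of that length carry it. CTACCTC occurs in Ago2 (3 times), Ago3 (1 time) and Tarbp2 (1 time). Of genes with a 3′ UTR within 10% of the same length, 48.4% of 31 carry it for Ago2 and 47.1% of 17 for Ago3. For Tarbp2, with a 3′ UTR of 334 bases, 3% of 600 do.

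A further list held the germline branch of the Argonaute family, the Piwil genes, and its partners. None of its Piwil genes passed the threshold in any comparison. Of 10 tested PIWI-clade genes and partners, Ddx4, a germ cell RNA helicase, rose in siLuc from 2.70 ± 0.428 to 4.58 ± 0.896 CPM (SD, n = 3 each; log2 fold change 0.75, edgeR adjusted p = 0.0128), and stood at 4.12 ± 1.26 in siStag3 cells (0.58 against untreated, adjusted p = 0.0466). The siLuc difference did not pass without the untreated library of Set 1 experiment 1 (0.63, adjusted p = 0.0641) or the siLuc library of Set 3 (0.74, adjusted p = 0.0619). The siStag3 difference passed without the siStag3 library of Set 3 (0.71), and without each of the other 5 libraries it was 0.47 to 0.70 and did not pass (adjusted p up to 0.203). Mael, a germline RNA-granule gene, rose in both siRNA groups against untreated (log2 fold change 0.52, adjusted p = 0.0411), and 7 of 9 libraries ended that call when left out, at 0.44 to 0.61 over the 9 fits. Cdkn1a (-0.27, adjusted p = 0.0194), Strbp (0.20, adjusted p = 0.0452) and Ddx4 (0.67, adjusted p = 0.00841) also passed in that comparison. With 1 library left out, the Cdkn1a call held in 5 of 9 edgeR fits (adjusted p up to 0.126). The Strbp call held in 1 of 9 (up to 0.181) and the Ddx4 call in 8 of 9 (up to 0.062). With the GC correction Strbp did not pass (edgeR adjusted p = 0.248), while Cdkn1a (0.00255) and Ddx4 (0.00312) did. No call on a listed gene held without the set term, where the adjusted p of those named as risen or fallen was 0.373 or more.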

How the data were processed

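mRNA libraries were made with the KAPA mRNA HyperPrep kit from 200 ng of RNA, per the labels' protocols. The authors deposited estimated counts per gene, written as whole numbers. Salmon, FastQC, DESeq2 and the GRCm39 build appear in the submitters' processing notes, without version; annotation and strand are not given in the sources used here. Counts were used as deposited, after rounding, which changed none. Columns carry group, set and experiment, not replicate numbers. Nothing says that replicates came from separate cultures, so p-values measure the spread between these libraries.

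All 9 libraries entered 1 fit of edgeR 4.0.16 (R 4.3.3): group means plus the set, TMM factors, filterByExpr (14246 genes), robust quasi-likelihood F test, two-sided, Benjamini-Hochberg over all genes, threshold 0.05. SE is the log2 fold change divided by the square root of F, and 95% intervals use the test's degrees of freedom. CPM are TMM-scaled; the log2 scale adds a prior count of 2. The limit of 3 counts covers counting error only. The biological coefficient of variation was 7.62% with the set and 14.6% without. The GC correction subtracts, in each library, the median deviation within each of 20 GC bins. GC, lengths, 3′ UTRs and 31-base sharing come from GENCODE M21 (GRCm38, not the authors' build; 16604 of 16636 IDs matched).

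The members, the design with the set and the lists were chosen with earlier results of these data known. All members and Stag3 are named; of each list, up to 4 genes past the threshold, otherwise the gene of smallest p, are eligible, and the 3 genes most correlated with Ago2 and with Dicer1 are named. A result on 1 listed gene is not reported here. The test was tried on simulated data. DESeq2 1.42.0 and other alternatives are given at the end.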

Additional observations from a re-analysis of the deposited data

How the results depend on the processing

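No paired analysis was possible because the labels' replicate numbers are not in the column names. A fit with both experiments of Set 1 and Set 3 as blocks was made in its place and gave 317, 4, 268 and 542 genes in the 4 comparisons. Of 656 member values under the alternatives, for 40 results, 604 kept their direction and side of the threshold, 50 changed sign and 2 passed the threshold, both of Tarbp2. The cause of these changes was not tested. Alternatives for the set difference were chosen after seeing the data.

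Counts of genes past the threshold moved more. For siLuc against untreated, 598 became 1 without the set term, 1016 with the GC correction, 317 with the experiment as block, 1296 with the DESeq2 Wald test, 298 in Set 1 alone, 1801 with only the libraries compared and 111 to 387 with 1 library left out. For siStag3 against siLuc, 4 became 0 without the set term, 51 with the GC correction, 22 with the DESeq2 Wald test and 1 with only the libraries compared, and 0 to 4 with 1 library left out; at an unadjusted p under 0.05 the main fit had 1122. For siStag3 against untreated, 361 became 2 without the set term, 932 with the GC correction, 949 in Set 1 alone and 78 to 1591 with 1 library left out. For both siRNA groups, 861 became 10 without the set term, 1393 with the GC correction, 542 with the experiment as block, 1311 in Set 1 alone and 134 to 3303 with 1 library left out. The upper ends, 1591 and 3303, came without the siStag3 library of Set 3, and without it Tarbp2 was -0.18 in both siRNA groups (adjusted p = 0.0192). The siLuc effect by set went from 2 to 11 genes with the GC correction, and the siStag3 effect by set from 160 to 24, or to 85 with DESeq2 size factors. The set difference had 6076 genes, and 4162 to 6355 with 1 library left out.

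Members changed sign as follows (log2). siLuc against untreated, 1 library left out: Ago1 -0.02 to 0.07, Ago3 -0.16 to 0.14, Ago4 -0.04 to 0.15, Drosha -0.04 to 0.0, Xpo5 -0.06 to 0.02. By setting, Ago1 was -0.04 scaled by total count; Ago3 -0.02 without the set term, -0.17 with the GC correction, -0.05 scaled by total count, -0.13 in Set 1 alone and 0.0 with only the libraries compared; Ago4 -0.06 and Xpo5 0.02 in Set 1 alone; Drosha 0.02 with the GC correction. siStag3 against siLuc, 1 left out: Ago3 -0.27 to 0.02, Ago4 -0.16 to 0.03, Dgcr8 0.0 to 0.02, Xpo5 -0.02 to 0.04, Prkra -0.08 to 0.01. In Set 1 alone, Ago3 was 0.05, Ago4 0.01, Xpo5 -0.02 and Tarbp2 -0.01. siStag3 against untreated, 1 left out: Ago2 -0.11 to 0.03, Ago4 -0.10 to 0.04, Xpo5 -0.04 to 0.02; Dicer1 was -0.02 scaled by total count. Both siRNA groups, 1 left out: Ago2 -0.04 to 0.10, Ago3 -0.15 to 0.0, Ago4 -0.05 to 0.09, Xpo5 -0.05 to 0.01; Ago2 was -0.02 and Ago4 -0.01 scaled by total count, and Ago4 -0.06 and Xpo5 0.01 in Set 1 alone. In the set difference, Dicer1 was 0.0 and Drosha -0.02 with the GC correction, and Ago4 -0.10 to 0.12 with 1 library left out.

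With 3 libraries a group, 1 of them from Set 3, the Set 3 values have no replicate within a group. Ago4, at 30 to 44 counts per library, had the widest intervals of the members.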
